A study of Mus musculus with 16 samples.

Results

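Cxcl13, Cxcr5, Ccl19 and Ccr7 are 4 of the 30943 gene symbols measured in mouse ear skin, and form a pair of chemokine and receptor axes. They were taken by their symbols in the deposited annotation, and of several transcript clusters (the array's unit for one gene model) under a symbol, that with the highest mean on the 16 arrays was used. They were chosen by their place in these axes and by the change of Cxcl13 with treatment, seen earlier in these data, so that change is described without a test. All mice were 8 to 11 weeks old, on the C57BL/6J background, and kept under specific pathogen free conditions. Of the 4 groups of 4 ears, wild-type mice received vehicle control or imiquimod (IMQ), and B6/Mir-146a-/- knock-out mice received the same treatments. IMQ, a Toll-like receptor 7 agonist that gives psoriasis-like inflammation in mice, was given on the right ear on each of 3 days in 31.25 mg of Aldara, a cream with 5% of the drug, and the mice were killed on day 4. Neither what the vehicle held nor how the knockout line was made is given in the sources used here. The labels do not say that the ears of a group came from separate mice, so a p-value covers only the spread among these ears, which may be technical.

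Chemokines are small secreted proteins that direct moving cells bearing the matching receptor. CXCL13 is the ligand of CXCR5, which is carried by B cells and follicular helper T cells, and together they place B cells in the follicles of lymph nodes and spleen. CCL19 is a ligand of CCR7, which guides naive T cells and mature dendritic cells, and CCR7 draws dendritic cells from skin into lymphatic vessels. In lymphoid organs both ligands are made by stromal cells downstream of the lymphotoxin beta receptor, and both are found in lymphoid aggregates of chronically inflamed tissue.

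The 250 bases before the annotated start of each ligand gene are shown because both ligands were higher with IMQ. They are RefSeq sequences of GRCm38.p6, printed 5′ to 3′ on the gene's strand, and the table used held a promoter for 2 of the 4 genes. Capitals mark 2 motifs that were searched on both strands, an NF-kB-type motif, GGGANNNNCC, and the TATA box motif TATAAA.
Cxcl13, chr5:95956689-95956938, plus strand: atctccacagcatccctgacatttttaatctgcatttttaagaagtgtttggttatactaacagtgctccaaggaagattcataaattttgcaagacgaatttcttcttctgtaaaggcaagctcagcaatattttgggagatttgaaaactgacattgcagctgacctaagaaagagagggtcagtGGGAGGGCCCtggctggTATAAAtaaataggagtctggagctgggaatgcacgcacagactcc
Ccl19, chr4:42756366-42756615, minus strand: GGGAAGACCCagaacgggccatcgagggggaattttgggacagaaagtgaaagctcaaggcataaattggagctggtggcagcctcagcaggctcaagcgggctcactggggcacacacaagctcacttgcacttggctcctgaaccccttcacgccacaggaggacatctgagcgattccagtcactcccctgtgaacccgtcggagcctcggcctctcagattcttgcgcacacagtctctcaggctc
In Cxcl13 the NF-kB-type match lay 54 to 63 bases before the start and the TATAAA match 41 to 46 bases before it. In Ccl19 the NF-kB-type match lay 241 to 250 bases before the start, at the far edge of the window, and no TATAAA was found in these letters. Of 32851 promoters of this length, 17.6% hold a GGGANNNNCC match and 12.4% a TATAAA match, so neither is rare, and a match is a description of letters and not a binding site.

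The knockout lacks miR-146a, a microRNA known as a brake on NF-kB signalling. Its mature form is shown to identify what differs between the genotypes, with the seed (bases 2 to 8) in capitals.
mmu-miR-146a-5p, chr11:43374435-43374456, minus strand: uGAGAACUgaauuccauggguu
On the arrays the symbol Mir146 lay below the array median in all 16 ears, with wild-type vehicle ears at 1.87 ± 0.22 and knockout vehicle ears at 1.80 ± 0.02 (log2, SD, n = 4), so the genotype labels are not checked by it.

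All values are log2 expression on the deposited scale, on which the median of an array lay between 3.21 and 3.28. Arrays of one group correlated with r between 0.960 and 0.976 across transcript clusters, lowest among the knockout vehicle arrays. All 8 keratinocyte markers lay above the array median on all 16 arrays, as the labelled tissue calls for. The knockout groups also differed in skeletal muscle markers: their mean over 16 genes was 8.48 to 9.44 in knockout vehicle ears and 7.22 to 8.08 in knockout IMQ ears, against 7.77 to 8.66 and 7.73 to 8.51 in the wild-type groups. All 16 muscle markers fell with IMQ in the knockout and none was called in wild type (median log2 change -1.36 and 0.09). Calls within the knockout are therefore given also with this mean as a covariate and without knockout vehicle arrays 3 and 4, which stood apart in earlier results of these data. The muscle mean did not overlap between the knockout groups, so the covariate nearly follows treatment there and widens the errors. With it the standard error of the knockout change of Ccl19 went from 0.20 to 0.37. A call lost with the covariate can thus come from lower precision, and whether muscle content explains a change was not tested. Calls are made with limma at an adjusted p under 0.05 over all 30943 symbols, an error after ± is an SD for a group mean and a standard error (SE) for a log2 change, and brackets hold 95% confidence intervals.

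Cxcl13, the follicular B cell chemokine, had the largest rise with IMQ of all 30943 symbols in wild-type ears. The 4 wild-type vehicle arrays read 2.86, 3.31, 3.32 and 3.64, and the 4 wild-type IMQ arrays 7.82, 8.91, 8.16 and 8.49. The vehicle values lay around the array median and every IMQ value stood more than 4 log2 units above it. The group means were 3.28 ± 0.32 and 8.35 ± 0.47 (SD, n = 4), a log2 change of 5.06 ± 0.30 (SE; 4.44 to 5.68), or 33.4-fold. In the knockout the vehicle arrays read 3.10, 3.99, 3.99 and 3.86 and the IMQ arrays 7.39, 7.59, 8.80 and 7.35. Here too each IMQ ear was above each vehicle ear, with array 3 of the IMQ group higher than the other 3. The means were 3.74 ± 0.43 and 7.78 ± 0.69 (SD, n = 4), a log2 change of 4.05 ± 0.30 (SE; 3.43 to 4.67), or 16.5-fold, the fifth largest of all symbols. It was 3.99 with the muscle marker mean as a covariate and 4.24 without knockout vehicle arrays 3 and 4. No p is given for these changes, because they were known when the gene was chosen. The wild-type comparison placed 5.52% of all symbols with every IMQ array above every vehicle array and 5.17% with every one below, and the knockout comparison 8.55% and 7.43%, and nothing is read from these shares for Cxcl13. In bulk ear RNA, more cells that make a transcript and more transcript per cell cannot be told apart.

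Cxcr5, the receptor for CXCL13, stayed below the array median on all 16 arrays. It read 2.73, 2.41, 2.70 and 2.65 in wild-type vehicle ears, 2.74, 2.67, 2.71 and 2.86 in wild-type IMQ ears, 2.94, 2.85, 2.68 and 2.35 in knockout vehicle ears and 2.56, 2.57, 2.86 and 2.84 in knockout IMQ ears. The 4 groups overlapped throughout. The log2 change with IMQ was 0.12 ± 0.13 in wild type (SE; -0.15 to 0.40; limma adjusted p = 0.762) and 0.00 ± 0.13 in the knockout (SE; -0.27 to 0.28; limma adjusted p = 0.994). The intervals hold for the deposited values, which for this gene lie in the dim range of the array.

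**Figure D1:**
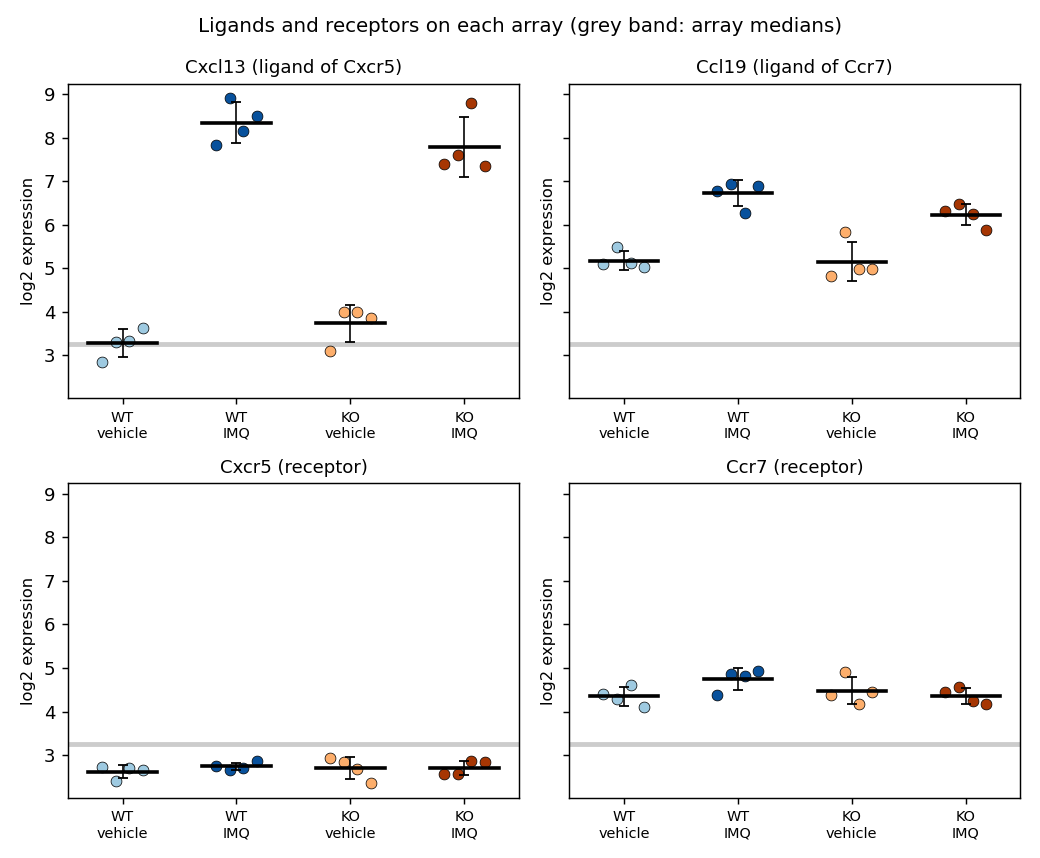
Log2 expression of the ligands (upper panels) and receptors (lower panels) on each of the 16 arrays, 4 per group. Points are arrays, the horizontal line is the group mean, the error bar is the SD and the grey band spans the array medians (3.21 to 3.28). Cxcl13 and Ccl19 are higher in every IMQ ear than in any vehicle ear of the same genotype, Cxcr5 lies below the band on every array, and the groups of Ccr7 overlap.

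Ccl19, a ligand of CCR7, rose with IMQ in both genotypes. The wild-type vehicle arrays read 5.09, 5.49, 5.11 and 5.02 and the IMQ arrays 6.77, 6.93, 6.28 and 6.89. The groups did not overlap, and the means were 5.18 ± 0.21 and 6.72 ± 0.30 (SD, n = 4). The log2 change was 1.54 ± 0.20 (SE; 2.91-fold; limma adjusted p = 1.94e-04). In the knockout the vehicle arrays read 4.82, 5.83, 4.99 and 4.98 and the IMQ arrays 6.32, 6.48, 6.24 and 5.89. Vehicle array 2 came close to the lowest IMQ array, but the groups did not overlap, with means of 5.16 ± 0.46 and 6.23 ± 0.25 (SD, n = 4). The log2 change was 1.08 ± 0.20 (SE; 2.11-fold; limma adjusted p = 9.07e-04). It was 1.51 with the muscle marker mean as a covariate (adjusted p = 0.0495) and 0.91 without knockout vehicle arrays 3 and 4 (adjusted p = 0.0265).

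The array carries 5 transcript clusters with the symbol Ccl19, and RefSeq lists near copies of the gene (Gm2023, with Ccl19 as a synonym, and the pseudogenes Ccl19-ps1, Ccl19-ps2 and Ccl19-ps3), so a cluster may read more than one copy. Clusters 17424421 and 17434190 held identical values on all 16 arrays. In wild type all 5 clusters rose, by 1.40 to 1.75 on the log2 scale, with no overlap between the groups in any of them. In the knockout the cluster used here (17434141) gave the largest rise and was the one cluster without overlap. The identical pair rose by 0.68 (adjusted p = 0.0447 over 32471 clusters) and cluster 17434280 by 0.80 (adjusted p = 0.0132), while cluster 17434087 was not called at 0.70 (adjusted p = 0.0522). The symbol Gm2023, examined after its values were seen, rose by 1.55 ± 0.25 in wild type (SE; adjusted p = 0.00101) and by 0.83 ± 0.25 in the knockout (SE; adjusted p = 0.0289).

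**Figure D2:**
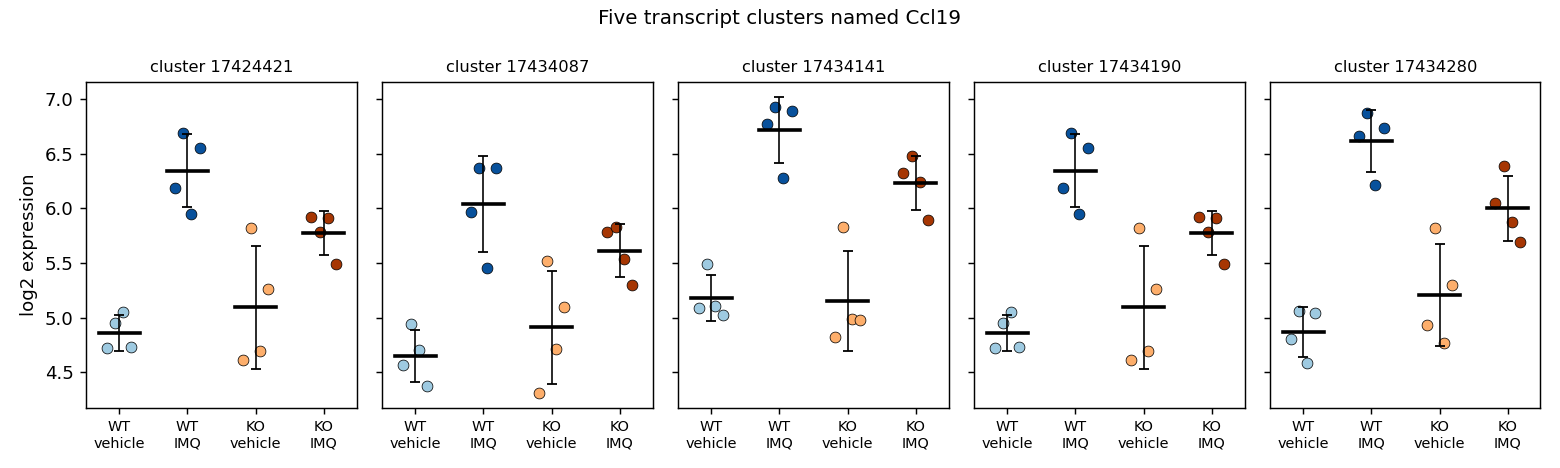
Log2 expression of the 5 transcript clusters that carry the symbol Ccl19 on each of the 16 arrays, with group means (lines) and SDs (error bars). The wild-type groups are apart in all 5 panels, and in the knockout vehicle group array 2 is the highest point of each panel and reaches the IMQ values in all clusters but 17434141.

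Ccl21a, Ccl21b and Ccl21c, the genes of the other CCR7 ligand, had no cluster under these symbols and were not analysed here. The predicted symbol Gm13304, for which RefSeq gives Ccl21b and Ccl21c as synonyms, was examined after its values were seen. It rose in wild type by 0.78 ± 0.19 (SE; adjusted p = 0.0235), with no overlap, and its change in the knockout was 0.06 ± 0.19 (SE; adjusted p = 0.901). The difference between the genotypes was -0.72 ± 0.27 (SE; adjusted p = 0.221), which did not pass the threshold.

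Ccr7, the receptor for CCL19 and CCL21, lay above the array median on all 16 arrays. In wild type the vehicle arrays read 4.41, 4.28, 4.62 and 4.11 and the IMQ arrays 4.39, 4.86, 4.81 and 4.93. In wild type 3 of the 4 IMQ arrays exceeded every vehicle array, and array 1 did not. The log2 change was 0.39 ± 0.16 (SE; 0.05 to 0.73; limma adjusted p = 0.245), which did not pass the threshold over all symbols. In the knockout the vehicle arrays read 4.37, 4.91, 4.18 and 4.44 and the IMQ arrays 4.44, 4.56, 4.24 and 4.17, so the groups overlapped. The log2 change there was -0.12 ± 0.16 (SE; -0.46 to 0.22; limma adjusted p = 0.725), and it was 0.30 with the muscle marker mean as a covariate (adjusted p = 0.722), so its sign is not settled.

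Of the 3 genes tested for IMQ, Ccl19 was called higher in each genotype, where 1.95% of all symbols were called higher and 1.69% lower in wild type, and 8.07% higher and 6.91% lower in the knockout. Neither receptor was called in either genotype. Whether the changes of a ligand and its receptor differ from each other was not tested.

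Knockout and wild-type ears were compared next, within each treatment. With vehicle, 0 of the 4 genes were called, against 0.456% of all symbols (0.107% higher and 0.349% lower). Cxcl13 was 0.45 ± 0.30 higher in the knockout (SE; -0.17 to 1.07; limma adjusted p = 0.586), and the groups overlapped, where 2.42% of all symbols had every knockout array above and 3.57% every one below the wild-type arrays. The log2 differences were -0.02 ± 0.20 for Ccl19, 0.08 ± 0.13 for Cxcr5 and 0.12 ± 0.16 for Ccr7 (SE), with adjusted p of 0.984, 0.871 and 0.840. At an unadjusted p under 0.05, 0 of the 4 passed with vehicle, and 12.2% of all symbols. The sign for Ccl19 was positive in its other 4 clusters (0.23 to 0.34), so it has no settled direction.

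With IMQ, both ligands and Ccr7 were lower in the knockout by point estimate, and again 0 of the 4 were called, against 0.12% of all symbols (0.0194% higher and 0.1% lower). Cxcl13 differed by -0.56 ± 0.30 (SE; -1.18 to 0.06; limma adjusted p = 0.652), Ccl19 by -0.49 ± 0.20 (SE; -0.91 to -0.06; adjusted p = 0.518) and Ccr7 by -0.40 ± 0.16 (SE; -0.73 to -0.06; adjusted p = 0.511). Cxcr5 differed by -0.04 ± 0.13 (SE; adjusted p = 0.970). For Ccl19 and Ccr7 the interval leaves out 0 but the adjusted p does not pass, and in each of the 4 genes the arrays of the genotypes overlapped in the cluster used (in the identical pair of Ccl19 clusters every knockout array was the lower), where 2.26% of all symbols had every knockout array above and 2.77% every one below. At an unadjusted p under 0.05, 2 of the 4 (Ccl19 and Ccr7) passed, and 8.24% of all symbols. Among 23 chemokine receptors Ccr7 had the lowest value in this comparison.

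The difference between the IMQ effects (knockout minus wild type) tests whether the response itself depended on genotype. It was -1.02 ± 0.42 for Cxcl13 (SE; -1.89 to -0.14; limma adjusted p = 0.289), the lowest of 36 chemokine ligands. For Cxcl13 the value is made of the IMQ changes that were known when the gene was chosen. Its interval, p and rank here are therefore descriptions and not support for a genotype effect. Ccl19 gave -0.46 ± 0.28 (SE; adjusted p = 0.539), Ccr7 -0.52 ± 0.23 (SE; -0.99 to -0.04; adjusted p = 0.336) and Cxcr5 -0.12 ± 0.18 (SE; adjusted p = 0.863). Of the 4 genes 0 were called, where 1.25% of all symbols were called (0.53% higher and 0.721% lower). At an unadjusted p under 0.05, 2 of the 4 (Cxcl13 and Ccr7) passed, and 13.1% of all symbols. The muscle markers moved with genotype and treatment at once: with their mean as a covariate the value was -1.07 for Cxcl13 (adjusted p = 0.774), -0.03 for Ccl19 (adjusted p = 0.993) and -0.09 for Ccr7 (adjusted p = 0.975). For Ccl19 it was -0.74 as the mean of its clusters (adjusted p = 0.257) and -0.69 to -0.95 in the other 4 clusters. Without knockout IMQ array 3, the highest of its group, the value for Cxcl13 was -1.35 (adjusted p = 0.0641). This was the lowest value and the lowest p of 26 alternatives. Without knockout vehicle arrays 3 and 4 the value for Cxcl13 was -0.825 (limma adjusted p = 0.539).

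With IMQ, 1.95% of all symbols were called higher and 1.69% lower in wild type, and 8.07% and 6.91% in the knockout. The 36 measured chemokine ligands put both genes in their family. In wild type 12 were higher and 0 lower (median log2 change 0.26, against -0.02 over all symbols). In the knockout 15 were higher and 2 lower (median 0.22, against -0.02). Both counts of higher ligands hold Ccl19 and Cxcl13. Cxcl13 enters them by its fitted value alone, as its change was known when it was chosen and is not tested. After Cxcl13 at 5.06, the largest called rises in wild type were those of the neutrophil chemokines Cxcl3 (2.94 ± 0.40, SE, adjusted p = 2.85e-04) and Cxcl1 (2.30 ± 0.33, SE, adjusted p = 4.76e-04) and of the monocyte chemokine Ccl7 (2.18 ± 0.25, SE, adjusted p = 6.35e-05). Ccl19 ranked at place 7 of 36 in wild type and 12 of 36 in the knockout. In the knockout Ccl3, an inflammatory chemokine, was level with Cxcl13 (4.06 ± 0.63, SE, adjusted p = 1.71e-04), ahead of Cxcl3 at 3.71 ± 0.40 (SE, adjusted p = 4.91e-06). With the muscle marker mean as a covariate Ccl3 was at 2.32 (adjusted p = 0.377) and Cxcl3 at 2.87 (adjusted p = 0.0619), neither called, beside 3.99 for Cxcl13. In the knockout 4 ligands were higher and 0 lower with the muscle marker mean as a covariate, and 11 higher and 0 lower without knockout vehicle arrays 3 and 4. Cxcl13 held place 1 in wild type in each of 27 alternative settings and places 1 to 3 in the knockout. As the gene was chosen with its IMQ changes known, these places are a description and not support.

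The one ligand called for genotype was Ccl20, the ligand of CCR6. It was lower in the knockout by 0.79 ± 0.16 with vehicle (log2 difference -0.79, SE, adjusted p = 0.0354) and by 1.02 ± 0.16 with IMQ (log2 difference -1.02, SE, adjusted p = 0.0148), yet it rose with IMQ in both genotypes, by 1.73 and 1.50. The vehicle call was lost in 7 of the 16 fits that each left out 1 array and the IMQ call in 3 of them, with adjusted p up to 0.141 and 0.0745. The arrays left out in those fits were, for vehicle, wild-type vehicle 1, 2 and 3, wild-type IMQ 2 and knockout vehicle 1, 2 and 4, and for IMQ, wild-type IMQ 2 and 4 and knockout IMQ 4. With the muscle marker mean as a covariate neither was called (adjusted p = 0.574 and 0.0802), nor with only the compared groups in the fit (adjusted p = 0.0623 and 0.111), and the vehicle call was also lost without knockout vehicle arrays 3 and 4 (adjusted p = 0.164).

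**Figure D3:**
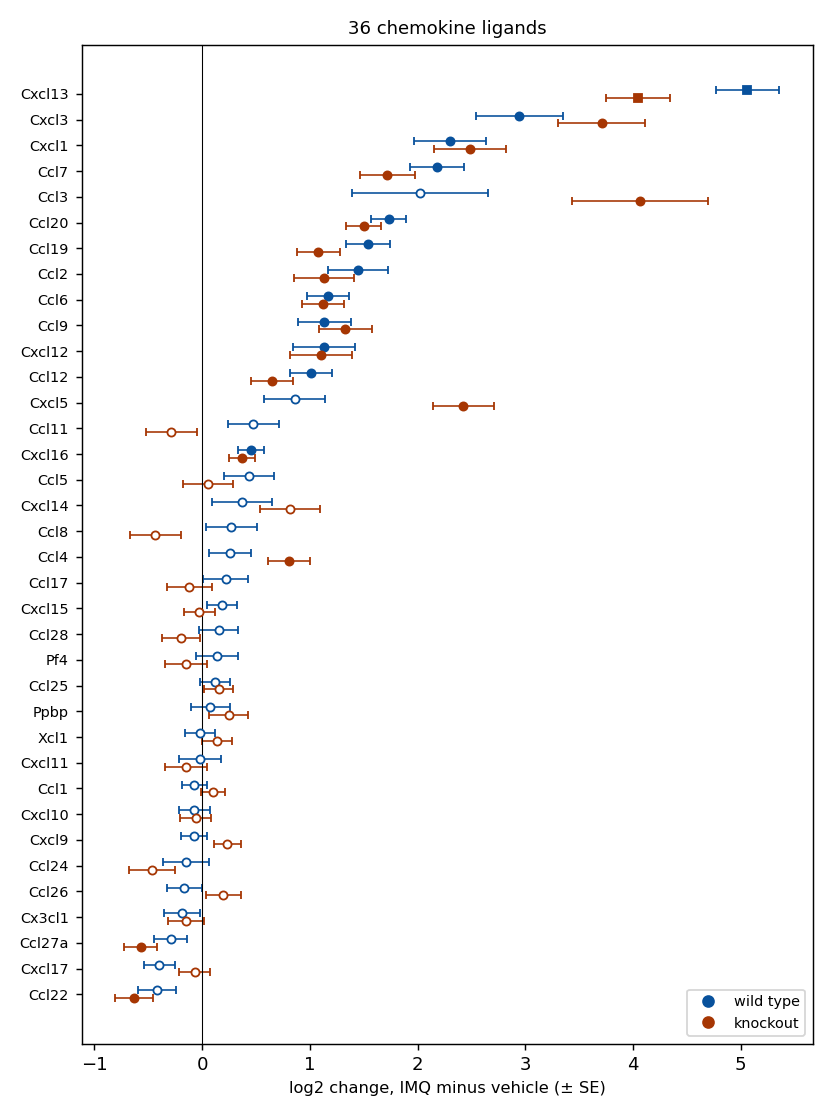
Log2 change with IMQ (IMQ minus vehicle, ± SE) of 36 chemokine ligands in wild-type (blue) and knockout (brown) ears, in the order of the wild-type change. Filled circles were called at an adjusted p under 0.05 and open circles were not; the squares are Cxcl13, which was not tested, and stand at 5.06 and 4.05.

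Over all symbols, 1.95% were called higher and 1.69% lower with IMQ in wild type, and 8.07% and 6.91% in the knockout. The list counts here and below are to be read beside these shares. Among 23 chemokine receptors, 2 were higher and 0 lower with IMQ in each genotype (median 0.09 and 0.09). In wild type these were the atypical receptor Ackr1 and the neutrophil receptor Cxcr2 (0.80 ± 0.20, SE, adjusted p = 0.0338), and in the knockout Cxcr2 (1.74) and Ccr1 (1.66). The wild-type call of Cxcr2 was lost without wild-type vehicle array 1, 2 or 4 or wild-type IMQ array 1, 3 or 4 (adjusted p up to 0.128). It was also lost after quantile normalization (0.75, adjusted p = 0.0514). Cxcr5 was 1 of 7 receptors that stayed below the array median on all 16 arrays. In the knockout 0 receptors were called with the muscle marker mean as a covariate and 2 were higher without knockout vehicle arrays 3 and 4.

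Of a list of 13 other genes of lymphocyte homing, 10 were measured. In wild type 3 were higher and 0 lower (median 0.45). Cyp7b1, which makes the oxysterol ligand of the B cell guidance receptor GPR183, rose by 2.11 ± 0.25 (SE, adjusted p = 6.67e-05), Cxcl12, the ligand of CXCR4, by 1.13 ± 0.28 (SE, adjusted p = 0.0311) and Ackr1, which carries chemokines across venules, by 0.93 ± 0.24 (SE, adjusted p = 0.0330). In the knockout 2 were higher and 0 lower (median 0.23), Cyp7b1 by 2.42 ± 0.25 (SE, adjusted p = 2.61e-06) and Cxcl12 by 1.10 ± 0.28 (SE, adjusted p = 0.0115). Gpr183 itself was not called (-0.24 and 0.15), nor was Ackr4, a scavenger of CCL19 and CCL21 (-0.61 and -0.49, adjusted p = 0.130 in both). With the muscle marker mean as a covariate 1 gene was called in the knockout, and 1 without knockout vehicle arrays 3 and 4. The knockout change of Cxcl12 was called in neither, at 1.90 with the covariate (adjusted p = 0.0686) and 0.84 without these arrays (adjusted p = 0.0873). No gene of this list was called for genotype or for the difference of effects. The wild-type calls of Cxcl12 and Ackr1 were near the threshold, and were lost in 6 and 8 of the 16 fits that each left out 1 array. Over these 16 fits the log2 change stayed between 0.975 and 1.28 for Cxcl12 and between 0.84 and 0.98 for Ackr1. Without wild-type vehicle array 1, for example, neither was called (adjusted p = 0.103 and 0.0694) and the count for wild type fell to 1. Leaving out any of the 8 wild-type arrays ended the call of Ackr1 (adjusted p up to 0.108), and leaving out wild-type vehicle array 1, 3 or 4 or wild-type IMQ array 1, 2 or 4 that of Cxcl12 (adjusted p up to 0.115).

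The lymphotoxin pathway that organises lymphoid tissue is upstream of both ligands in lymph nodes. It was read within a list of 22 lymphoid organiser genes. The list is wider than lymphotoxin and its receptor, and holds for example Tnf, Il7, Tnfsf11, Tnfsf13b, Tnfrsf13c and Icam1. In wild type 2 were higher and 1 lower (median 0.03). Icam1, an adhesion molecule, rose by 1.0 ± 0.18 (SE, adjusted p = 0.00304) and Tnf by 1.01 ± 0.26 (SE, adjusted p = 0.0330), and Tnfrsf13c, the B cell survival receptor for BAFF, fell by 0.66 ± 0.16 (log2 change -0.66, SE, adjusted p = 0.0244). The call of Tnf was lost without wild-type vehicle array 1, 2 or 4 or any 1 of the 4 wild-type IMQ arrays (adjusted p up to 0.116). That of Tnfrsf13c was lost without wild-type vehicle array 1, 3 or 4 or wild-type IMQ array 2, 3 or 4 (adjusted p up to 0.0907). In the knockout 6 were higher and 0 lower (median 0.11), among them Tnf (1.78 ± 0.26, SE, adjusted p = 8.42e-05), Icam1 (0.69 ± 0.18, SE, adjusted p = 0.0140) and the TNF receptor Tnfrsf1a (0.58 ± 0.15, SE, adjusted p = 0.00969). Tnfsf14 (0.56), Map3k14 (0.42) and Nfkb2 (0.42) were also called, of which the last pair encode NIK and the p100 subunit of non-canonical NF-kB. The call of Tnfsf14 was lost without knockout vehicle array 4 (adjusted p = 0.0509) and without knockout IMQ array 1 (adjusted p = 0.0580). Tnfrsf1a and Tnfsf14 were not called without knockout vehicle arrays 3 and 4 (adjusted p = 0.0645 and 0.137). Nor were they called with only the compared groups in the fit (adjusted p = 0.0531 and 0.0548). The lymphotoxin genes Lta (-0.12 and 0.10) and Ltb (-0.08 and 0.24), their receptor gene Ltbr (0.28 and 0.36) and Relb (-0.05 and -0.03) were not called in wild type or in the knockout. In the knockout 0 genes of this list were called with the muscle marker mean as a covariate, and 4 were higher and 0 lower without knockout vehicle arrays 3 and 4. With only the compared groups in the fit, 2 were higher (Tnf and Icam1) and 0 lower there. Without knockout vehicle array 4, 3 were higher in the knockout (Tnf, Icam1 and Tnfrsf1a). Map3k14 and Nfkb2 were thus called in neither of these fits.

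**Figure D4:**
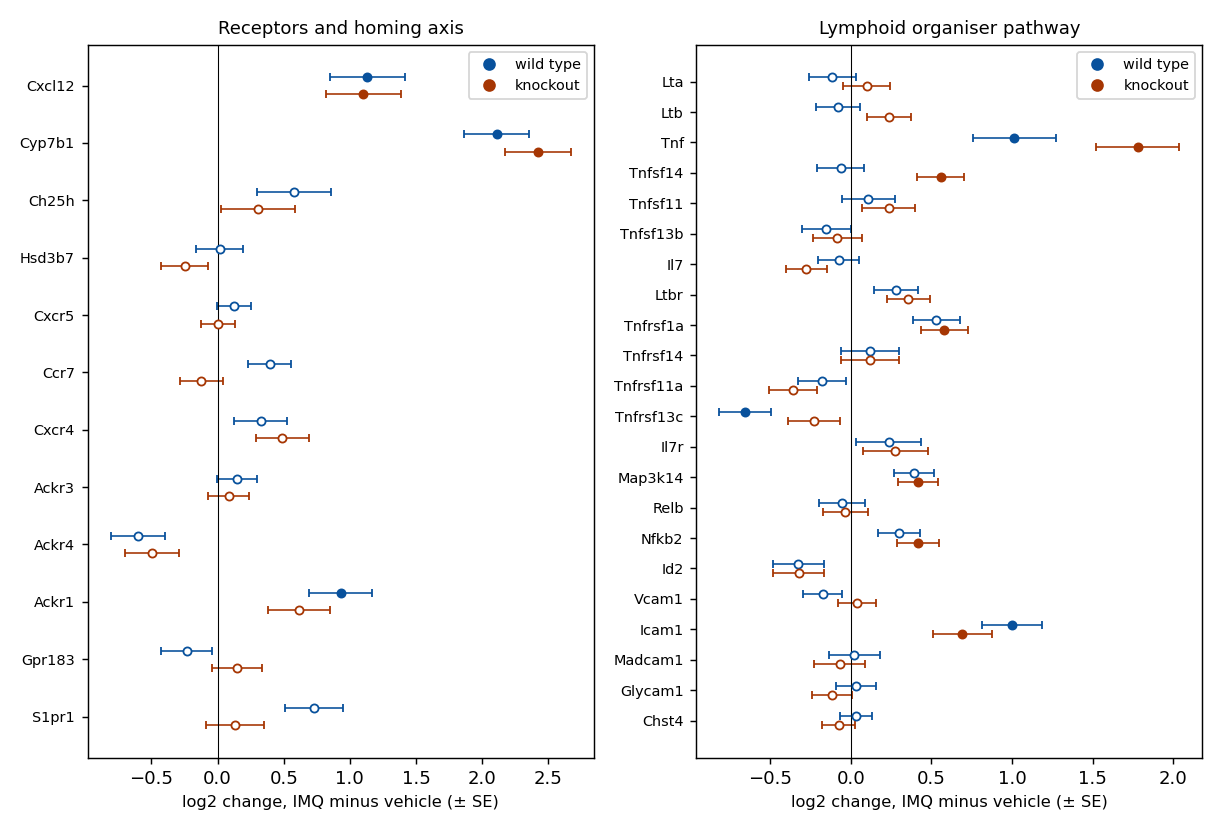
Log2 change with IMQ (IMQ minus vehicle, ± SE) in wild-type (blue) and knockout (brown) ears of the homing genes with both receptors (left) and of 22 genes of the lymphoid organiser pathway (right). Filled circles were called at an adjusted p under 0.05 and open circles were not; Cyp7b1 stands highest on the left at 2.11 and 2.42, and Lta, Ltb, Ltbr and Relb lie between -0.12 and 0.36.

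Markers of the cells that carry the receptors were read on the same arrays. Over all symbols, 8.07% were called higher and 6.91% lower with IMQ in the knockout, so 1 call in a short list is not read as a result. Of 11 B cell markers 9, Ms4a1, Cd79a and Cd79b among them, stayed below the array median on all 16 arrays. The mean of the list was 2.73 to 2.81 in wild-type vehicle, 2.69 to 2.81 in wild-type IMQ, 2.66 to 2.87 in knockout vehicle and 2.75 to 2.93 in knockout IMQ ears, and these ranges overlapped. In wild type 0 of the 11 were called, and in the knockout Cd72, an inhibitory B cell receptor that macrophages also express, was higher (1.02 ± 0.23, SE, adjusted p = 0.00374). Follicular helper T cell markers (8) gave 0 calls in wild type and 1 lower in the knockout (Bcl6, log2 change -0.73), which was not called with the muscle marker mean as a covariate but was without knockout vehicle arrays 3 and 4. Of 13 T cell markers Cd3g was lower in both genotypes (log2 change -0.68 and -0.58) and no other was called. The knockout call of Cd3g was lost with the muscle marker mean as a covariate (adjusted p = 0.368) and without knockout vehicle arrays 3 and 4 (adjusted p = 0.0786). The mean of the T cell list was 3.29 to 3.41 and 3.02 to 3.22 in wild-type vehicle and IMQ ears. In knockout vehicle and IMQ ears it was 3.232 to 3.426 and 3.037 to 3.227. It was thus lower with IMQ without overlap in both genotypes, narrowly so in the knockout. The median log2 change of the list was -0.18 in each genotype, against -0.02 over all symbols.

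Mature migratory dendritic cells, which carry CCR7, gave 0 higher and 1 lower of 9 measured markers in wild type (median -0.22) and 2 higher and 5 lower in the knockout (median -0.47). The one lower in wild type was Apol7c (log2 change -0.93 ± 0.21, SE, adjusted p = 0.0145; 0.0542 without wild-type vehicle array 1). Called in the knockout were Cd80 (1.38) and Fscn1 (0.84), both higher, and the chemokine gene Ccl22 (-0.64; adjusted p = 0.0691 without vehicle array 2 and 0.0564 without IMQ array 3) and Apol7c (-0.92) among those lower. None of the 9 was called in the knockout with the muscle marker mean as a covariate, and without knockout vehicle arrays 3 and 4 it was 2 higher and 2 lower. The list mean ran from 3.92 to 4.17 and 3.85 to 4.05 in wild-type vehicle and IMQ ears, and from 3.89 to 4.18 and 3.78 to 3.89 in the knockout. Of 11 markers of dendritic or Langerhans cells, 0 were called in wild type and 3 were lower in the knockout, a count of 0 with the muscle marker mean as a covariate and of 3 without knockout vehicle arrays 3 and 4.

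Markers of monocytes or macrophages, phagocytes that enter inflamed skin, were read beside the ligands. Of these 16 markers 7 were higher and 0 lower in wild type (median 0.80) and 5 higher and 1 lower in the knockout (median 0.44). The wild-type count of higher markers was 5 to 9 over the 16 fits that each left out 1 array. The wild-type calls of C1qb and Lyz2 were lost in 5 and 2 of these fits (limma adjusted p up to 0.0955 and 0.0562). Itgam rose by 2.16 ± 0.21 and 2.33 ± 0.21 (SE, adjusted p = 1.05e-05 and 6.45e-07), and the macrophage surface gene listed as Emr1 (now Adgre1) by 1.63 and 1.12 (the latter not called without knockout vehicle arrays 3 and 4, adjusted p = 0.0939). The list mean was 4.82 to 4.99 in wild-type vehicle and 5.54 to 6.00 in wild-type IMQ ears, without overlap. In the knockout it was 4.60 to 5.50 and 5.41 to 5.74, with overlap through vehicle array 2, which was also the highest of its group for Ccl19 and Ccr7. With the muscle marker mean as a covariate 2 were higher and 0 lower in the knockout, and without knockout vehicle arrays 3 and 4 it was 3 higher and 1 lower. Their part in the ligands' changes was not tested.

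Vessels and stroma were the remaining sources of homing signals with a list. Of 6 lymphatic endothelium markers 3 were higher in wild type (Lyve1 by 1.25, Pdpn by 0.79 and Flt4 by 0.56, the last with adjusted p of 0.0535 and 0.0590 without wild-type vehicle array 3 or 4) and 1 in the knockout (Pdpn by 1.07, not called with the muscle marker mean as a covariate, adjusted p = 0.268). The list mean went from 4.52 to 4.62 with vehicle to 5.06 to 5.33 with IMQ in wild type, and the knockout groups, at 4.45 to 5.21 and 4.68 to 5.10, overlapped. Flt4 was called for the difference of effects (-0.87 ± 0.18, SE, adjusted p = 0.0221), but not with the covariate (-0.70, adjusted p = 0.596) or without wild-type vehicle array 3 or knockout vehicle array 4 (adjusted p = 0.0524 and 0.0513). Of 8 blood endothelium markers 3 were higher in wild type and 4 in the knockout, with 0 lower. The knockout count was 2 with the covariate and 3 without knockout vehicle arrays 3 and 4. Fibroblast markers (7) gave 2 higher and 1 lower in wild type and 1 higher and 2 lower in the knockout, and keratinocyte markers (8) gave 0 higher and 1 lower in wild type and 4 higher and 2 lower in the knockout. With the covariate 0 fibroblast and 0 keratinocyte markers were called in the knockout. Without knockout vehicle arrays 3 and 4, 2 fibroblast markers were lower and 0 higher, and 1 keratinocyte marker was higher and 2 were lower.

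**Figure D5:**
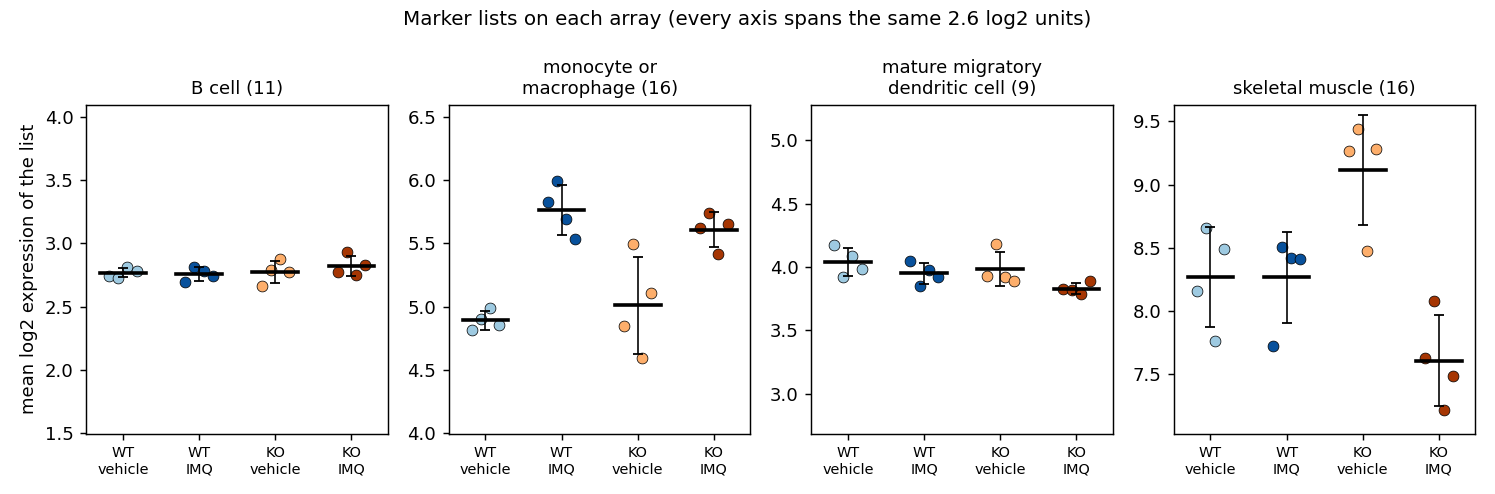
Mean log2 expression of 4 marker lists on each of the 16 arrays, with group means (lines) and SDs (error bars); the number of genes is in brackets and every vertical axis spans the same length. The B cell means lie between 2.66 and 2.93 in all groups. By group mean, the macrophage list is higher with IMQ in each genotype, with overlap of arrays in the knockout. By group mean, the muscle list is highest in knockout vehicle and lowest in knockout IMQ ears.

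The symbols with the pattern most like that of Cxcl13 over the 16 arrays were found by the root mean square difference between log2 values, each gene centred on its own mean. Cxcl13 itself had a root mean square spread of 2.33 on this scale. Symbols with predicted, clone or small RNA names were left out of the ranking, so the 6 nearest are those among the rest. The 6 nearest symbols were Saa3 (0.76), an acute-phase serum amyloid, Retnlg (0.91), Chil3 (0.96), a product of alternatively activated macrophages and other myeloid cells, Lcn2 (0.97), an iron-sequestering protein of the acute phase, the chemokine gene Cxcl3 (1.16) and Serpina3n (1.20), a protease inhibitor. Saa3 rose with IMQ by 3.79 in wild type and by 4.78 in the knockout (difference of effects 0.99 ± 0.57, SE, adjusted p = 0.503). Retnlg rose by 3.18 and 3.35, Chil3 by 3.03 and 3.12, and Serpina3n by 2.37 and 2.12. The measure ranks symbols by size of change as well as by shape, and the likeness is a description over these 16 arrays.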

How the data were processed

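Total RNA from 16 mouse ears was hybridised to Affymetrix Gene ST 2.1 arrays. The deposited table holds log2 values of 41345 transcript clusters, which the authors made, per the submitters' processing notes, in Affymetrix Expression Console. Neither its version, the summarisation nor the genome build is given in the sources used here. The log2 values run from 1.25 to 13.29 with 2 decimals, and no further normalization was applied. The deposited annotation gives a symbol to 32471 clusters and none to 8874. One cluster per symbol, that with the highest mean, left 30943 symbols, with no filter on dim genes. Arrays have no depth, and their number limits the precision.

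In limma 3.58.1 (R 4.3.3), lmFit and eBayes were run on all 16 arrays with 4 group means, which left 12 residual degrees of freedom and a prior of 6.18. The 5 contrasts were each adjusted by the Benjamini-Hochberg method over 30943 symbols, and the script was tested on simulated data. Genes of a list that are named are up to 4 called ones per contrast with the largest absolute change, and any gene of the homing and organiser lists; Gm2023, Gm13304 and examples below the array median (Ms4a1, Cd79a and Cd79b) were picked with their values in view. The 4 genes, the lists and the alternatives were chosen with earlier results of these data known. A total of 4 genes of the lists are not reported here, and list counts and means leave them out. Comparisons with the same treatment or genotype share arrays. Promoter and microRNA sequences come from RefSeq (GRCm38.p6). The titles number the arrays of each group and state no pairing of samples. The main fit does not use these numbers, and the closing section gives a fit with them as a replicate block. Alternatives were a dim-gene filter, 2 normalizations, another variance model, array weights, only the compared groups, a replicate block, other cluster rules, a muscle covariate, and leaving out arrays.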

Additional observations from a re-analysis of the deposited data

Results flagged for a closer look

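In groups of 4 arrays, 1 value was marked when its gap to the nearest other value exceeded Dixon's 95% limit, as a share of the group's range. Chance gives such a mark in about 1 of 20 groups, and 3 of the 16 groups formed by the 4 genes had one. Cxcl13 in knockout vehicle array 1 read 3.10, below the other 3 arrays. Without this array the IMQ change in the knockout was 3.84 and the difference of effects -1.23 (adjusted p = 0.164). Cxcl13 in knockout IMQ array 3 read 8.80, above the other 3 arrays. That array also had the lowest muscle marker mean of all 16, 7.22, and without it the knockout change was 3.71 and the difference between genotypes with IMQ -0.90 (adjusted p = 0.209). Ccl19 in knockout vehicle array 2 read 5.83, above the other 3 arrays. The same array was the highest of its group for Ccr7 (4.91), for the macrophage marker mean (5.50) and for the muscle marker mean (9.44), and without it the Ccl19 change in the knockout was 1.30 (adjusted p = 5.58e-05).

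The IMQ effect differed between genotypes by limma's interaction term for Flt4 and for 10 of the 16 skeletal muscle markers (all lower, list median -1.49), and for no other gene of the lists, where 1.25% of all symbols were called. Flt4, the lymphatic VEGF receptor, gave -0.87 (adjusted p = 0.0221), with means of 4.19 and 4.75 in wild-type vehicle and IMQ ears and 4.46 and 4.15 in the knockout. The call of Flt4 was lost with the muscle marker mean as a covariate (-0.70, adjusted p = 0.596), without wild-type vehicle array 3 (adjusted p = 0.0524) and without knockout vehicle array 4 (adjusted p = 0.0513).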

How the results depend on the processing

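No call of Ccl19, Cxcr5 or Ccr7 and no genotype call of Cxcl13 changed under 27 alternatives. The Ccl19 calls kept adjusted p of at most 0.00128 in wild type and 0.0495 in the knockout. Estimates near 0 changed sign. In the knockout with IMQ, Cxcr5 gave -0.0077 with array weights, -0.20 with the muscle covariate and -0.19 without knockout vehicle arrays 3 and 4, and Ccr7 gave 0.30 with the covariate. With vehicle, the genotype difference of Ccl19 was 6e-04 after quantile normalization, 0.21 as the mean of its clusters and 0.15 without knockout vehicle arrays 3 and 4, and that of Ccr7 was -0.12 with the covariate. The cause was not tested. Leaving out 1 array at a time gave, for vehicle, -0.25 to 0.0892 for Ccl19 and -0.025 to 0.22 for Ccr7, in the knockout with IMQ -0.22 to 0.0225 for Ccr7 and -0.12 to 0.0808 for Cxcr5, and between genotypes with IMQ -0.0883 to 0.0117 for Cxcr5. For Cxcl13 the IMQ change ran from 4.87 to 5.24 in wild type and from 3.71 to 4.19 in the knockout.

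Counts over all symbols moved more. Symbols higher and lower with IMQ in the knockout fell from 2496 and 2138 to 216 and 227 with the muscle covariate (1650 higher without knockout vehicle arrays 3 and 4), and those of the difference of effects from 164 and 223 to 0 and 0. The latter became 330 and 393 with the dim-gene filter, and 321 or 259 higher with the trend and robust options or array weights. For genotype with vehicle, 33 and 108 became 111 and 246 with the dim-gene filter, 84 and 259 with the trend and robust options, 67 and 170 with array weights, 55 higher after quantile normalization, 2 and 13 with only the compared groups and 1 and 1 with the covariate. For genotype with IMQ, 6 and 31 became 2 and 4 with the covariate and 1 and 10 with only the compared groups, and 78 were lower with the trend and robust options. Leaving out 1 array gave 384 to 666 higher in wild type, 6 to 200 higher and 29 to 274 lower for genotype with vehicle, 1 to 11 and 6 to 69 with IMQ, and 56 to 341 higher and 93 to 483 lower for the difference of effects. The filter gives no value for Cxcr5, and a fit of only the compared groups none for the difference of effects.

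With the array number as a replicate block, Ccl19 had adjusted p of 7.55e-05 and 2.09e-04 and Cxcl13's difference of effects 0.175, and no call of the 4 genes changed. Over all symbols the block moved the vehicle genotype counts to 77 and 163. Same-numbered arrays correlated by -0.08 to 0.11 in their deviations (median 0.01, 24 pairs), where arrays of other groups and numbers had a median of -0.0045. The same-numbered pairs of wild-type and knockout vehicle arrays gave 0.0549 to 0.1052, and 7 of 16 arrays correlated best with their own number. This check does not settle whether same-numbered arrays share more than a number.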
